A study of Homo sapiens with 6 samples.

Results

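The regions described here are the AcNEIL1 peaks of chromosomes 4, 13 and 18, 7149 of the 149862 peaks listed in 3 chromatin immunoprecipitation libraries (ChIP-seq). The members are all listed peaks on chromosomes of these 3 names, whatever their values, and the chromosomes were picked with earlier results of these data known. Replicates 1, 2 and 3 gave 2017, 2796 and 2336 of them, which was 4.81% ± 0.226 (SD, n = 3) of a list. All libraries came from HCT116, a human colorectal cancer cell line, grown exponentially and without a treatment or a genetic change named in the labels. AcNEIL1 is the acetylated form of NEIL1 and was pulled down with a custom rabbit antibody. Each ChIP library was set by the authors against 1 of 3 input libraries of sheared chromatin, with the same replicate number. The ChIP libraries held 28814429 to 35222701 tags and the inputs 32877739 to 37772127. Separate cultures for the replicates are not named in the labels, and p-values then measure the spread between these libraries only, which may be technical. There was only 1 condition, and every comparison is between chromosomes or between replicates.

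NEIL1 is a DNA glycosylase. It cuts oxidised bases out of DNA and so opens base excision repair, which other enzymes finish by filling and sealing the gap. Acetylation of NEIL1 is known to accompany its binding to chromatin, and the title of the series places repair complexes in open chromatin. Gene-poor chromosomes are of interest there, because long stretches of them hold few active genes, while short stretches, often next to the chromosome ends, are rich in genes and in G and C bases.

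The name gene-poor held against the annotation. Chromosomes 18, 13 and 4 had 3.34, 3.49 and 4.02 protein-coding genes per Mb, the lowest 3 values of the 23 chromosomes compared (1 to 22 and X). The gene-bearing span was 190.1 Mb with 764 protein-coding genes on chromosome 4, 96.2 Mb with 336 on chromosome 13 and 80.2 Mb with 268 on chromosome 18.

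Sequence is shown for a few transcription starts with a peak over them in all 3 replicates. They come from the 2 protein-coding genes with the highest mean rank of fold enrichment on each chromosome, of which chromosome 13 is represented by 1. NEIL3, a sister glycosylase gene of NEIL1 on chromosome 4 with no peak at its start in any replicate, is set beside them. Each line gives the 250 bases before the start, 5′ to 3′, from RefSeq (GRCh38.p14), with every CpG dinucleotide (the letters CG, which read the same on both strands) in capitals.
S100P (chr4:6693628-6693877, + strand): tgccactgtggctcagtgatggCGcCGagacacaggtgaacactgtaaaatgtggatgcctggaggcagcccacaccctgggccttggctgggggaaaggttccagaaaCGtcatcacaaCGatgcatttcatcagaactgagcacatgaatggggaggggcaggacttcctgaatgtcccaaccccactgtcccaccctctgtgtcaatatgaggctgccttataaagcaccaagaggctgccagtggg
PDE6B (chr4:651702-651951, + strand): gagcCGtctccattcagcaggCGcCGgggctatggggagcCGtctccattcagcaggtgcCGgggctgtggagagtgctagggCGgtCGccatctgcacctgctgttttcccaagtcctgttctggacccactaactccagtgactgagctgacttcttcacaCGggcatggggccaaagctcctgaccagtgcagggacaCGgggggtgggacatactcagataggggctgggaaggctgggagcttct
MCF2L (chr13:112979116-112979365, + strand): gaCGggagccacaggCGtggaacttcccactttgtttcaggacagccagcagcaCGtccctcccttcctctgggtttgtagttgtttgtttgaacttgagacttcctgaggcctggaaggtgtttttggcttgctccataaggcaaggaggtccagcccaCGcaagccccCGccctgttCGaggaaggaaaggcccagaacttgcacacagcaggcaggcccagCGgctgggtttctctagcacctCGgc
SOCS6 (chr18:70288795-70289044, + strand): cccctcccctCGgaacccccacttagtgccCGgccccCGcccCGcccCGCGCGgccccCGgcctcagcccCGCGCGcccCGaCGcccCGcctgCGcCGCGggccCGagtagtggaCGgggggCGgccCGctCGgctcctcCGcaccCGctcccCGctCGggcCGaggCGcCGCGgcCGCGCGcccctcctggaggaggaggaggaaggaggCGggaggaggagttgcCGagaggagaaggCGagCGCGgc
GNAL (chr18:11751222-11751471, + strand): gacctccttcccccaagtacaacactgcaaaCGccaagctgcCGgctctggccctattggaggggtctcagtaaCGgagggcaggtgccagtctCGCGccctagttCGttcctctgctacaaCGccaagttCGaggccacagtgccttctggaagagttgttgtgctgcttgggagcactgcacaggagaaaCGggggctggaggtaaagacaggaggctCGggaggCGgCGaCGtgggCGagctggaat
NEIL3 (chr4:177309624-177309873, + strand): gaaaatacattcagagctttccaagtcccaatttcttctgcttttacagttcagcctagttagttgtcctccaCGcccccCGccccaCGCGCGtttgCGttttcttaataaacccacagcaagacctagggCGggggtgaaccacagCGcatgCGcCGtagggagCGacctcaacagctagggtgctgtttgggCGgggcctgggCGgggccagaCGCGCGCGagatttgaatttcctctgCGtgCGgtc
The 6 stretches held 4, 9, 8, 38, 14 and 19 CpG in the order shown. The median was 7 over the 3290 promoter windows of chromosomes 4, 13 and 18 and 11 over all 34961 windows, and 94.0% of all windows held at least 1 CpG in these 250 bases. SOCS6 stood far above both medians and S100P below them, so a peak in the promoter window went with CpG-rich and with CpG-poor sequence. The starts of S100P, SOCS6 and NEIL3 are the first base of the gene. Those of PDE6B, MCF2L and GNAL are alternative starts inside the gene's span.

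In the promoter window of SOCS6, which encodes a suppressor of cytokine signalling, the strongest peak had a fold of 4.42, 4.75 and 5.20 in replicates 1, 2 and 3 (4.79 ± 0.396, SD, n = 3). Fold here is the authors' ratio of tag pileup to local background at the summit. The 3 SOCS6 summits lay 178, 75 and 44 bp into the gene. At S100P, the gene of a small calcium-binding protein, the folds were 4.05, 4.56 and 4.63, with summits 965 bp before and 112 and 225 bp after the start. MCF2L encodes an exchange factor for small GTPases. Its folds of 2.15, 5.60 and 5.66 were low in replicate 1 only, and the summit of that replicate was also the farthest from the start, 685 bp before it against 9 and 37 bp. GNAL, a G protein subunit gene, had folds of 3.93, 4.07 and 7.46, with replicate 3 above the others. PDE6B, a subunit of a photoreceptor phosphodiesterase, had 3.17, 5.86 and 6.37, with replicate 1 the lowest.

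Such starts were few. Of the 3290 promoter windows (250 bases before to 50 after a start) 30 (0.912%), in 27 genes, had a peak in all 3 replicates, against 1.68% of all windows. The share was 0.954% on chromosome 4, 1.01% on chromosome 13 and 0.693% on chromosome 18, and 1.77% on the other chromosomes. In the 300 bases, the 30 windows had a median of 10 CpG and 62.2% G and C, and the 3151 windows of the same chromosomes without any peak had 9 CpG and 52.0%. On the other chromosomes the windows with peaks in all 3 replicates held fewer CpG (median 11) than those without any (15), while their G and C content was again higher (64.3% against 58.3%).

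Peaks were sparse on all 3 chromosomes. Chromosome 4 had 6.25, 7.89 and 6.84 peaks per Mb in replicates 1, 2 and 3 (6.99 ± 0.831, SD, n = 3). Chromosome 13 had 4.48, 7.10 and 5.60 (5.73 ± 1.31, SD, n = 3), and chromosome 18 had 4.96, 7.64 and 6.18 (6.26 ± 1.34, SD, n = 3). The ranges of the 3 chromosomes overlapped, and replicate 2 was the highest on each. Only chromosome X was sparser, with 1.25 ± 0.720 (SD, n = 3), and chromosome 5 came next above with 9.02 ± 2.14 (SD, n = 3). Taken as a unit, chromosomes 4, 13 and 18 had 6.50 ± 1.07 peaks per Mb (SD, n = 3) and the other chromosomes 18.3 ± 3.76. The difference was -9.07, -14.5 and -11.9 in the 3 replicates. Per protein-coding gene the gap was smaller, 1.74 ± 0.286 peaks against 2.57 ± 0.529 (SD, n = 3), with lower values on chromosomes 4, 13 and 18 in all 3 replicates. By this measure they were not set apart. Chromosomes 4, 13 and 18 had 1.74, 1.64 and 1.87 peaks per gene on average, chromosome 6 had 1.63 and chromosome 5 had 1.83. Of the differences between these chromosomes and the others, 7 planned measures were tested over the 3 libraries with an exact sign-flip permutation test (two-sided). They were peaks per Mb, peaks with a partner in both other replicates and summits near the ends of the gene-bearing span. The rest were distance to a gene end, summits close to a gene end, median width and median fold. The test's p was 0.25 for each of the 7, the smallest that 3 libraries allow, so the text gives their size and direction by replicate. An adjustment over the 7 could not lower it. All further differences from the other chromosomes are given as description, without a p-value.

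**Figure D1:**
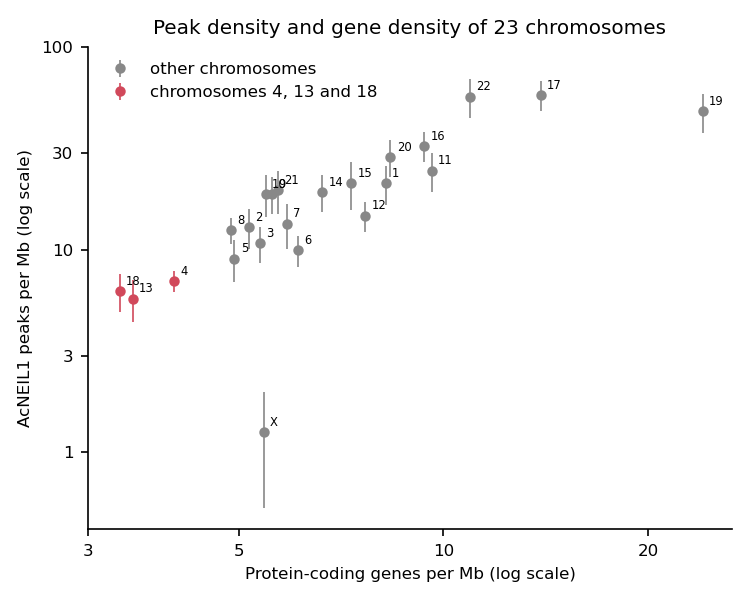
Peaks per Mb (mean of 3 replicates, error bars 1 SD, log scale) against protein-coding genes per Mb (log scale) for 23 chromosomes, with chromosomes 4, 13 and 18 in red. They sit at the low end of both axes, at 5.73 to 6.99 peaks per Mb, and only X has fewer peaks.

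On chromosomes 4 and 13 the few peaks gathered mostly at 1 end of the gene-bearing span. Of the summits on chromosomes 4, 13 and 18, 66.3% ± 3.89 (SD, n = 3) lay in the outer 10 Mb of the gene-bearing span, against 37.2% ± 0.629 on the other chromosomes, a difference of 25.4, 32.1 and 30.0 percentage points in replicates 1, 2 and 3. Outside the outer 10 Mb, 2.58 peaks per Mb were left on average. Chromosome 18 alone had 35.9%, 34.1% and 35.1% of its summits in the outer 10 Mb in replicates 1, 2 and 3. This was below the 36.8%, 37.9% and 36.8% of the other chromosomes in each replicate. The 3 chromosomes did not share 1 layout, and each is described in turn.

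On chromosome 4 the short-arm end held most of the peaks. The stretch chr4:48896-10048896 had 765, 1166 and 935 summits, 71.3% ± 6.69 (SD, n = 3) of the chromosome's total. It makes up 5.26% of the span and holds 16.9% of its protein-coding genes (129 of 764). It also held 261 of the 326 regions of chromosome 4 that had a peak in all 3 replicates. These shared regions, formed by merging overlapping peaks, are the base of what follows. The opposite end had 49, 71 and 60 summits (4.49% ± 0.322, SD, n = 3) and 12 shared regions, so the 2 ends of 1 chromosome differed more than 10-fold in every replicate. Between the ends, 89.5% of the span and 77.7% of the genes had 24.2% ± 6.997 (SD, n = 3) of the summits.

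On chromosome 13, which has genes on its long arm only, the far end of that arm (chr13:104351567-114351567) held 210, 361 and 291 summits, 51.9% ± 2.77 (SD, n = 3) of the total, in 10.4% of the span, and 72 of 112 shared regions. The other outer 10 Mb, which adjoins the centromere side rather than a chromosome end, had 20.3% ± 1.54 (SD, n = 3) and 24 shared regions. The wide middle had 27.8% ± 2.80 (SD, n = 3) and 16. Chromosome 18 was the exception. There 65.0% ± 0.918 (SD, n = 3) of the summits and 49 of 83 shared regions lay between the ends, in 75.1% of the span, while the left end had 11.03% ± 1.93 and the right end 24.0% ± 1.02 (SD, n = 3), each in 12.5% of it.

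**Figure D2:**
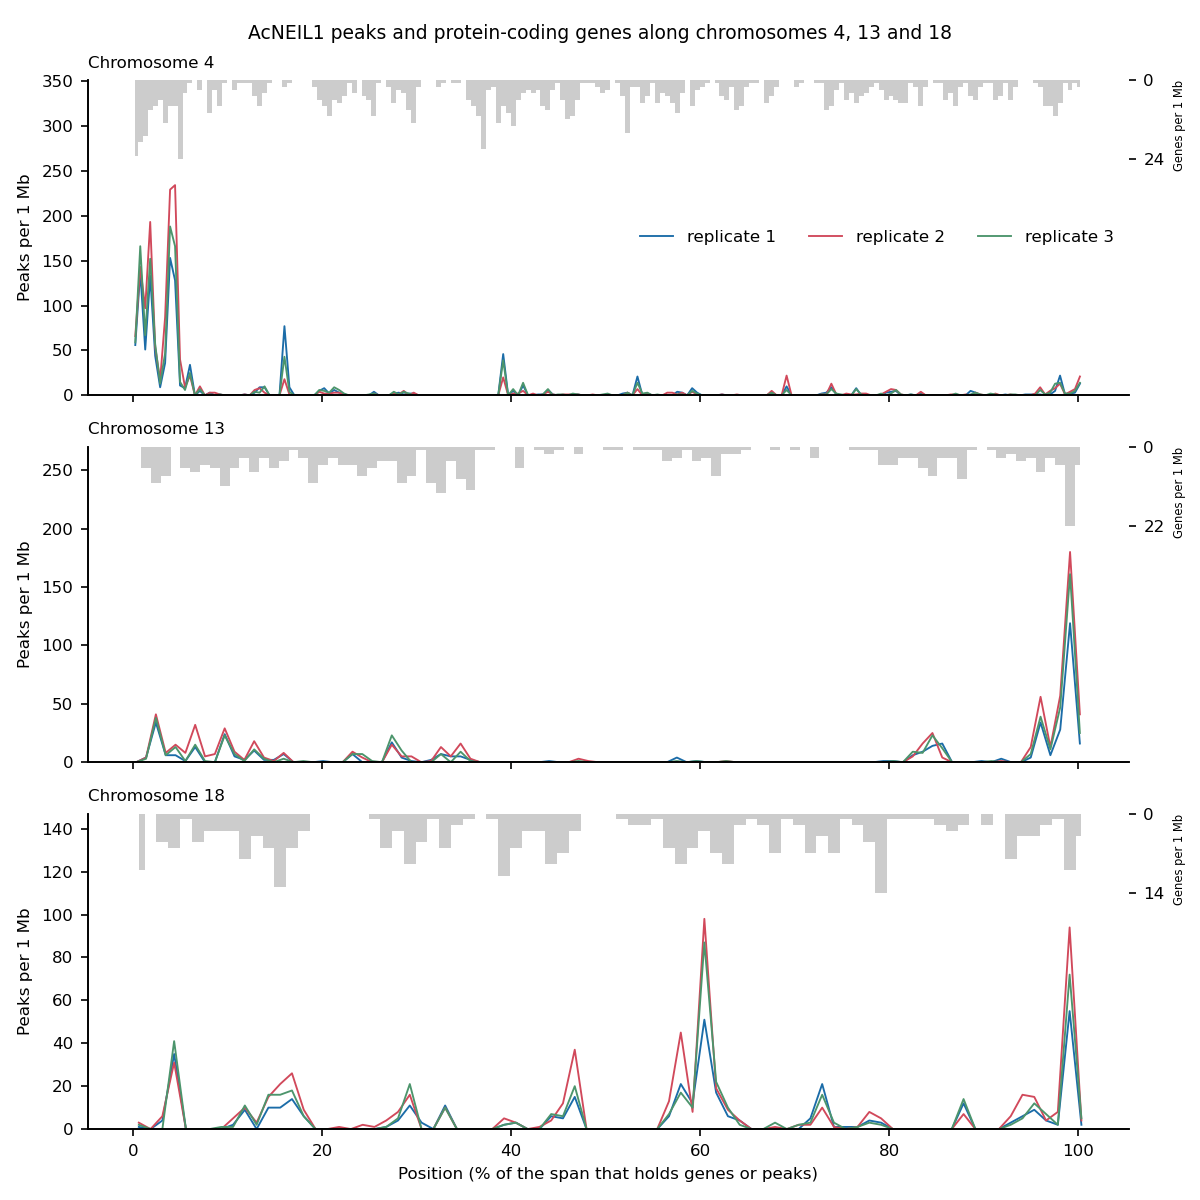
AcNEIL1 peaks per 1 Mb in each replicate (lines, left axis) along chromosomes 4, 13 and 18, placed by percent of the span that holds genes or peaks, with protein-coding genes per 1 Mb as grey bars hanging from the top (right axis). Peaks crowd at the left end of chromosome 4, where the bin with the highest mean has 153, 229 and 188, and at the right end of chromosome 13, while chromosome 18 has several separate crests.

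At the scale of 1 Mb, 160 of the 366 bins (43.7%) had no peak in any replicate, against 30.4% of the bins of the other chromosomes. The densest 37 of the 366 bins held 77.4% ± 0.972 (SD, n = 3) of the peaks, against 56.9% ± 1.09 in the densest 254 of the 2540 bins elsewhere. Taken by chromosome, the densest 19 of 190 bins held 85.4% ± 1.23 on chromosome 4, the densest 10 of 97 held 73.1% ± 1.83 on chromosome 13 and the densest 8 of 79 held 58.3% ± 2.82 on chromosome 18 (SD, n = 3). Across the 366 bins the number of peaks went with the number of protein-coding genes only in part. Spearman's rank correlation was 0.539, 0.587 and 0.568 in replicates 1, 2 and 3, a description over bins that share libraries. The corresponding values on the other chromosomes were 0.692, 0.704 and 0.700.

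The 3 densest bins of chromosome 4 lay close together on its short arm. From 7 to 8 Mb there were 153, 229 and 188 peaks and 57 shared regions, of which 45 touched SORCS2, the gene of a sorting receptor of the VPS10 family. The next bin, 8 to 9 Mb, had 128, 234 and 166 peaks. Its 36 shared regions touched, among others, HTRA3 (6), a secreted serine protease gene, HMX1 (5), a homeobox gene, and SH3TC1, TRMT44 and CPZ (2 each). From 3 to 4 Mb there were 133, 193 and 152 peaks. There RGS12, a regulator of G protein signalling, had 8 shared regions, DOK7, an adaptor of the neuromuscular junction, had 6, and MSANTD1, HGFAC, LOC105374355, GRK4 and ADRA2C had 1 or 2 each. In all 3 bins replicate 2 had the most peaks and replicate 1 the fewest.

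On chromosome 13 the bin from 113 to 114 Mb had 119, 180 and 161 peaks and stood far above the others. Its 46 shared regions touched 9 of its 22 protein-coding genes, among them MCF2L (7), TMEM255B (7), F7 (6), C13orf46 (5) and F10 (4). F7 and F10 encode coagulation factors. ATP4B (1), a subunit of the gastric proton pump, lies there too. From 112 to 113 Mb there were 28, 57 and 47 peaks, in MCF2L (7 shared regions) and ATP11A (2), a phospholipid flippase gene. From 110 to 111 Mb there were 34, 56 and 39, with shared regions in COL4A2 (3) and COL4A1 (1), the adjoining genes of 2 basement membrane collagen chains.

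On chromosome 18 the densest bin, 48 to 49 Mb, had 51, 98 and 87 peaks. Its shared regions touched CTIF (8), a translation initiation factor gene, ZBTB7C (2) and SMAD7 (2), an inhibitor of TGF-β signalling. The bin from 79 to 80 Mb had 55, 94 and 72, with KCNG2 (7), a potassium channel subunit gene, and NFATC1 (1), a calcium-responsive transcription factor gene. From 3 to 4 Mb there were 35, 31 and 41, with DLGAP1 (12), the gene of a postsynaptic scaffold protein, and TGIF1 (1), a homeobox repressor gene. In this last bin replicate 2, the longest list, had the fewest.

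Replicate 1 was the shortest list but led in a few places inside chromosome 4. Of the 35 bins with 20 or more peaks in some replicate, 23 had the most in replicate 2, 6 in replicate 1 (5 of them on chromosome 4) and 6 in replicate 3. The interior of chromosome 4 as a whole had 374, 263 and 306 summits. From 30 to 31 Mb there were 77 in replicate 1, 18 in replicate 2 and 43 in replicate 3, and the only protein-coding genes there are PCDH7, a protocadherin gene, and LOC124900844. From 74 to 75 Mb there were 46, 20 and 39. The growth factor genes EREG, AREG, BTC and EPGN and the chemokine genes CXCL2 and CXCL3 lie in this bin. Of these genes only EREG had a peak within 1 kb of an end, in replicates 1 and 3. Shared regions of the bin included chr4:74623422-74624703 and chr4:74667368-74669884, 120056 and 74875 bp from BTC, their nearest protein-coding gene. Another, chr4:74543572-74545061, lay 88567 bp from AREG. PPP3CA, the gene of a calcineurin catalytic subunit, had 19, 7 and 11 peaks over its body. In each of these places the order of the replicates was 1, 3, 2, the reverse of the order of their totals. These bins were singled out after their values were seen.

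Long stretches had no shared region. The longest was chr13:51796428-97258467, 45.5 Mb with 73 protein-coding genes and 14, 17 and 14 peaks in the 3 replicates, none of them in the same place in all. On chromosome 4 it was chr4:153489406-182831772, 29.3 Mb with 79 genes and 17, 21 and 24 peaks. On chromosome 18 it was chr18:23288697-32331490, 9.04 Mb with 32 genes and 19, 20 and 18 peaks. The median gap between neighbouring shared regions was 4263 bp on chromosome 4, 12058 bp on chromosome 13 and 26309.5 bp on chromosome 18. Most neighbours were within 10 kb of each other on chromosome 4 only. The counts were 204 of 325 neighbouring pairs on chromosome 4, 54 of 111 on chromosome 13 and 31 of 82 on chromosome 18.

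Agreement of the replicates differed among the 3 chromosomes. Of 4219 merged regions, 521 (12.3%, Wilson 95% interval 11.4 to 13.4, which covers counting error only) had a peak in all 3 replicates. The share over all chromosomes was 13.2%. A peak in 2 replicates was found in 711 regions and in 1 replicate in 2987, of which 718, 1453 and 816 were found only in replicate 1, 2 and 3. Chromosome 4 had 15.1% of its regions in all 3 (326 of 2162), chromosome 13 had 10.98% (112 of 1020) and chromosome 18 had 8.00% (83 of 1037), the second lowest of the 23 chromosomes after X. Within chromosome 4 the share was 18.8% in the short-arm end, 11.01% in the opposite end and 7.95% between them. Within chromosome 13 it was 16.1% at the far end and 4.47% in the middle. On these 2 chromosomes the share was highest where the peaks were densest. On chromosome 18, compared by end, it was not: the left end, with the fewest peaks, had 14.6% (14 of 96 regions), the right end 8.85% and the middle 6.85%. Of those 14, however, 13 lay in the bin from 3 to 4 Mb, with 35, 31 and 41 peaks, which is among the 3 densest of the chromosome. The part of peak density in these shares was not tested.

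Counted by peak, 37.0%, 21.6% and 32.1% of the peaks of replicates 1, 2 and 3 overlapped a peak in both other lists (30.2% ± 7.84, SD, n = 3), against 31.9% ± 9.53 on the other chromosomes. The difference of -4.18, -0.494 and -0.350 points in replicates 1, 2 and 3 had a mean of -1.67 and an SD of 2.17, and with peaks of −log10 q of 5 or more it was 0.100 points the other way. Of the peaks of replicate 1, 60.3% on chromosome 4, 53.1% on chromosome 13 and 42.2% on chromosome 18 overlapped 1 of replicate 2. In every one of the 6 ordered pairs of replicates chromosome 4 had the highest percentage and chromosome 18 the lowest. The 3 summits of a shared region lay within a median of 662 bp of each other, against 668 bp on the other chromosomes, and within 500 bp in 198 of 521. Over the 521 regions the fold on the log2 scale had Pearson's r of 0.28, 0.35 and 0.33 for replicates 1 with 2, 1 with 3 and 2 with 3, given as a description over regions of the same libraries.

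Width and fold differed little from those elsewhere. Median width was 396, 469.5 and 373 bp (412.8 ± 50.4, SD, n = 3), against 421.7 ± 50.3 on the other chromosomes. The difference was -5, -9.5 and -12 bp by replicate, and with peaks of −log10 q of 5 or more these chromosomes had the wider peaks, by 14.7 bp. Median fold was 3.49, 3.41 and 3.64 (3.51 ± 0.114, SD, n = 3) against 3.47 ± 0.112, a difference of 0.0658, 0.0149 and 0.0338 by replicate. The peaks covered 0.402% ± 0.148 of the span against 1.14% ± 0.459 (SD, n = 3). Shared regions were wider, with a median of 1716 bp. They are unions of peaks of 3 lists, and the part of this in their width was not tested. The regions found in a single replicate had medians of 321.5, 399 and 308 bp.

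The shared regions with the highest mean rank of fold were found by a fixed number, 5 for each chromosome. On chromosome 18, 4 of the 5 lay in DLGAP1. At chr18:3603636-3605900, where DLGAP1-AS2 also lies, the folds were 11.5, 7.10 and 5.92 (8.18 ± 2.95, SD, n = 3), and the first was the highest fold of any of the 7149 peaks. At chr18:3650182-3652695 they were 8.88, 6.04 and 6.76, and at chr18:3618678-3623727 they were 6.55, 5.38 and 6.99. The weakest of the 4, chr18:3594472-3598376, had 5.53, 4.99 and 5.54. All 4 were 98 kb or more from the ends of DLGAP1, the nearest at 98440 bp. The fifth, chr18:79806802-79810267 in KCNG2, had 5.81, 4.98 and 5.45.

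On chromosome 4, 2 of the 5 lay in the long non-coding RNA gene LOC102723906, 232893 and 245316 bp from FAT1, an atypical cadherin gene. Their folds were 5.47, 6.86 and 6.53 at chr4:186959589-186971945 and 6.02, 6.84 and 5.60 at chr4:186972012-186973613. These 2 regions lie next to each other and may be parts of 1 place. The 3 summits were spread over 9215 bp in the first, so its folds come from different positions, and over 70 bp in the second. A region in FAM53A (chr4:1669056-1672689) had 5.55, 7.29 and 5.84, with its 3 summits within 131 bp. An intergenic region, chr4:1750229-1761472, had 5.44, 5.39 and 6.05 and lay 5058 bp from TACC3, which encodes a mitotic spindle protein. The region chr4:30768093-30770184 in PCDH7 had 4.91, 5.32 and 6.69. The folds of these 5 regions overlapped, so their order is not settled by 3 replicates.

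On chromosome 13 the highest was chr13:44310897-44312933 in the non-coding LOC107984552, 60714 bp from SERP2, with folds of 5.997, 5.80 and 6.05, a spread of only 0.132 (SD, n = 3). A region in CRYL1 (chr13:20414099-20417049), a crystallin-like dehydrogenase gene, had 6.16, 5.51 and 6.30. A region in C13orf46 (chr13:113938268-113945521) had 5.84, 5.43 and 5.93. MBNL2, a splicing regulator gene, had 7.05, 5.80 and 5.36 at chr13:97258468-97262723. MCF2L had 5.30, 6.01 and 4.93 at chr13:113024423-113028127. The 15 regions included 11 that touched a protein-coding gene, and 3 of the other 4 were in long non-coding RNA genes.

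**Figure D3:**
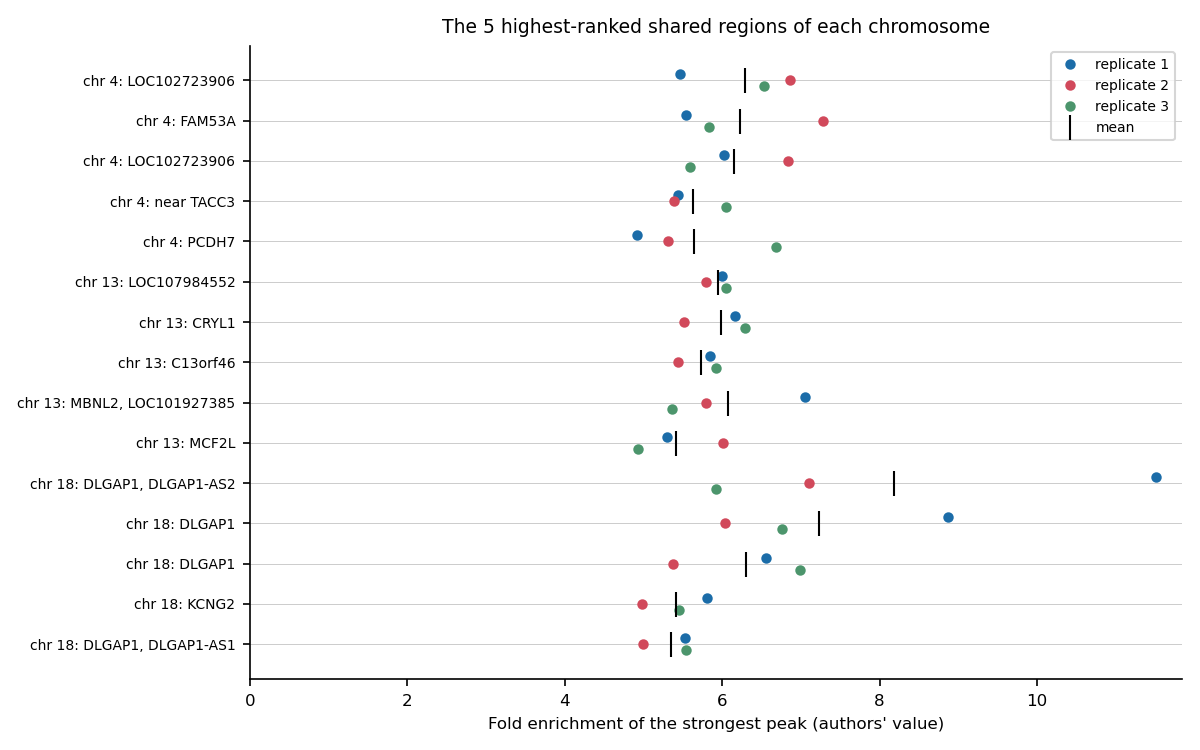
Fold enrichment of the strongest peak in each replicate (coloured points) and the mean (black bar) for the 5 highest-ranked shared regions of chromosomes 4, 13 and 18, named by the genes they touch or the nearest one. The points of most regions lie between 4.91 and 7.29, and the DLGAP1 region at 11.5, 7.10 and 5.92 has the widest spread.

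Most peaks were far from gene ends. The median distance from a summit to the nearest end of a protein-coding gene was 25166, 23585 and 23539.5 bp (24097 ± 926, SD, n = 3), against 12171 ± 396 on the other chromosomes, a difference of 13046, 10995 and 11738 bp by replicate. Within 1 kb of a gene end lay 4.49% ± 0.277 of the summits against 7.89% ± 0.207 (SD, n = 3), lower in all 3 replicates. Beyond 100 kb lay 11.9% ± 1.56 against 8.14% ± 0.389 (SD, n = 3). With long non-coding RNA genes counted as well, the median was 10236 bp against 6465 bp on the other chromosomes, and the difference shrank from 11926 to 3770 bp. Genes are farther apart on these chromosomes, and the part of gene spacing in the difference was not tested.

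**Figure D4:**
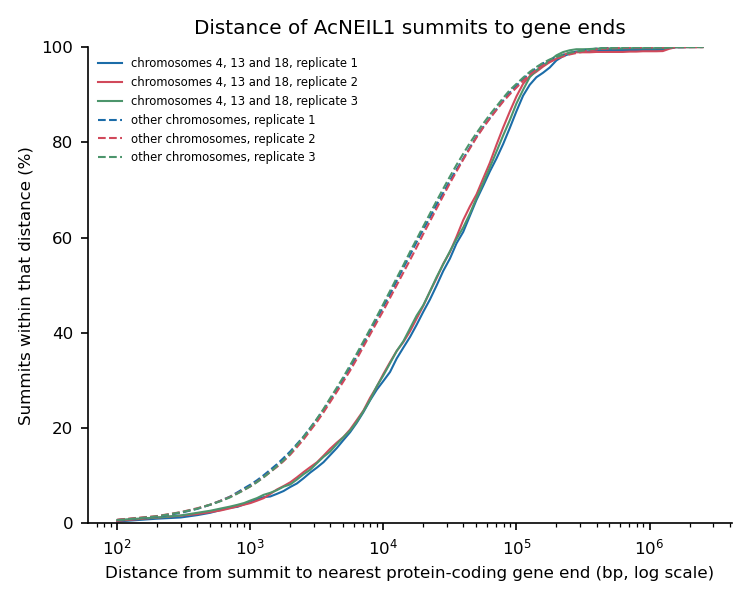
Cumulative share of summits (percent) by distance to the nearest protein-coding gene end (bp, log scale), for each replicate on chromosomes 4, 13 and 18 (solid) and on the other chromosomes (dashed). The solid lines run to the right of the dashed ones up to about 100 kb, with medians of 24097 against 12171 bp.

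Of the 521 shared regions, 318 (61.0%) touched a protein-coding gene, close to the 63.8% of the 10808 on the other chromosomes, and 57 came within 1 kb of a gene end (39 on chromosome 4, 15 on chromosome 13 and 3 on chromosome 18). No protein-coding and no long non-coding RNA gene was touched by 162. The farthest were 4 regions of low fold in a gene desert of chromosome 4, from 131723474 to 131750318, which lay 1398976 to 1424825 bp from PCDH10, a protocadherin gene. Their mean folds were between 2.81 and 2.98, near the lowest of any shared region (2.73), yet each had exactly 1 peak in every replicate. Their pileups were 26 to 50, 34 to 44 and 23.85 to 37.21 in replicates 1, 2 and 3. All of these were above the median pileups of chromosomes 4, 13 and 18, which were 19, 20 and 18.13. Another 4 of the farthest regions, 221564 to 265046 bp from HS3ST1, a heparan sulfate sulfotransferase gene, lay in the non-coding LOC107986178. At chr4:11699373-11700737 the folds were 4.10, 3.63 and 6.30, and at chr4:11697799-11698763 they were 5.52, 4.35 and 3.97, which overlap.

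Within gene bodies, SORCS2 (chr4:7192538-7742827) had 124, 190 and 158 peaks and 45 shared regions, or 8.18 per 100 kb. FAM53A had 19 (17.0 per 100 kb), MCF2L 13 and DLGAP1 12, and DLGAP1 is so long that this is 1.25 per 100 kb. The highest density among genes with 3 or more was in F7 (chr13:113105791-113120685), 6 shared regions in 14895 bp, or 40.3 per 100 kb, with 9, 8 and 9 peaks. PCDH7 had 9, with 81, 16 and 43 peaks in the 3 replicates. These genes were named after their counts were seen, and a long gene has more room for peaks.

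At gene ends, peaks were uncommon. A gene-end peak, one that comes within 1 kb of either end of a gene, was found for 84, 118 and 86 of the 1368 protein-coding genes of chromosomes 4, 13 and 18, 7.02% ± 1.39 (SD, n = 3), against 17.3% ± 3.32 on the other chromosomes. In at least 2 replicates it was found for 85 genes (6.21%), against 15.2% of all protein-coding genes. The count was 52 of 764 on chromosome 4, 25 of 336 on chromosome 13 and 8 of 268 on chromosome 18. Without replicate 2 the count, then over the remaining 2 libraries, was 47. In all 3 replicates it was found for 43 genes, 29 of them on chromosome 4, and 24 of those 29 lie in the short-arm end. In none was it found for 1208. The strand was known for 38 of the 43, of which 17 had it in all 3 replicates at the start alone, 14 at the far end alone, 6 at both and 1 at neither end taken singly.

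The 20 genes of highest mean rank of fold among these 43 carried modest folds, and only some were even across replicates. HGFAC, which encodes an activator of hepatocyte growth factor, had gene-end folds of 4.33, 7.86 and 4.65 (5.61 ± 1.95, SD, n = 3), and its neighbour RGS12 had 4.83, 7.57 and 3.63. Replicate 2 was the highest in both, with different peaks, but its peak of fold 7.57 also lay over a promoter window of HGFAC. The 2 genes are therefore not independent. The signalling genes also included GRK4, a G protein-coupled receptor kinase, with 3.01, 4.48 and 6.77, and SOCS6, given above, whose start held its peak in all 3 replicates and whose far end held none.

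Transcription factors among the 20 were HMX1 (chr4:8846076-8871839), with 3.97, 6.82 and 5.18, and GSX1 (chr13:27792483-27794768), a homeobox gene of the developing brain, with 4.38, 4.54 and 3.49. Both had the peak at the start in all 3. Membrane transport was represented by SLC26A1, an anion exchanger, with 3.70, 4.96 and 5.18, and SLC7A1, a transporter of cationic amino acids, with 3.61, 3.43 and 5.57. CPLX1, which encodes complexin, a clamp of synaptic vesicle fusion, had 3.81, 7.52 and 4.11. The folds of these genes overlapped from gene to gene.

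Secreted or extracellular products were encoded by HTRA3, with 3.42, 5.95 and 5.51, by COL4A2, with 3.46, 5.02 and 4.43, and by F10 (chr13:113122799-113149529), with 5.07, 4.73 and 3.60. F10-AS2 (chr13:113150212-113153986) lies next to the far end of F10. It had 5.07, 4.73 and 4.86, and the peaks of replicates 1 and 2 are the same as those of F10, so the 2 genes are not independent. LOC124900844 (4.44, 4.78 and 4.67) in the same way shares the peaks of replicates 1 and 2 with PCDH7.

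Further genes of the 20 were C13orf46 (6.22, 4.42 and 4.69), S100P (given above), LOC105374355 (2.87, 5.22 and 4.72), SIGLEC15, a sialic acid-binding receptor (3.92, 5.65 and 4.09) and CIDEA, a lipid droplet protein gene. CIDEA (3.75, 4.18 and 3.98) lay at chr18:12254361-12277595 and was among the most even, with an SD of 0.216. On chromosome 18 only SOCS6, SIGLEC15, CIDEA and KCNG2 had a gene-end peak in all 3 replicates.

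**Figure D5:**
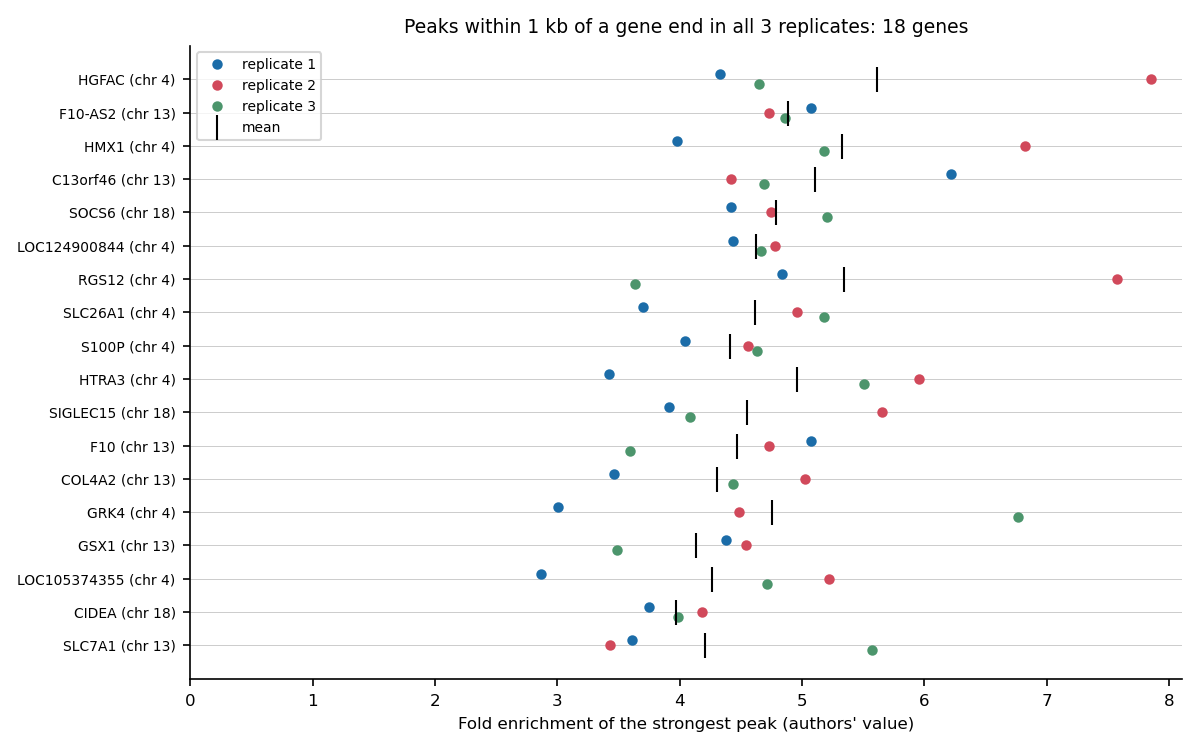
Fold enrichment of the strongest peak within 1 kb of a gene end in each replicate (coloured points) and the mean (black bar) for the 18 of the 20 genes whose strand was known. HGFAC and RGS12 have replicate 2 far above the others, while F10-AS2, LOC124900844 and CIDEA are even.

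Counts for lists of genes by role are read against the share of protein-coding genes that had such a peak in 2 or 3 replicates, 6.21% on chromosomes 4, 13 and 18 and 15.2% over all chromosomes. Of 24 genes of repair and genome maintenance, 1 had it (4.17%), near the share of these chromosomes: POLN, a translesion polymerase gene of the chromosome 4 short arm, with folds of 2.62 and 3.56 in replicates 1 and 2. The other 23 had none in any replicate. NEIL3 had its nearest peak 1845, 1010 and 134.5 kb from a gene end in the 3 replicates. For LIG4, the ligase of end joining, these distances were 986, 1048 and 1048 kb, and for ERCC5, an endonuclease of nucleotide excision repair, 1333, 2279 and 2130 kb. BRCA2, which acts in homologous recombination, had 475, 27.0 and 729 kb. POLI, another translesion polymerase gene, had 3073, 145 and 3.52 kb, so its only close peak was in replicate 3. A missing peak means that none passed the caller's limit at this depth.

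RB1 and SMAD4, both tumour suppressor genes, and CDX2 and GATA6, transcription factors of the gut epithelium, had no gene-end peak and no peak over a promoter window either. The nearest peak to RB1 was 17.2, 14 and 735 kb away and that to SMAD4 was 22, 12.5 and 53.1 kb away. CDX2 and GATA6 were different in that a peak stood just outside the window in every replicate, 3.19, 1.78 and 1.60 kb from CDX2 and 4.31, 3.20 and 4.51 kb from GATA6.

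Developmental transcription factor genes had a gene-end peak in at least 2 replicates in 5 of 30 (16.7%, against 6.21% on these chromosomes and 15.2% over all): HMX1, GSX1 and GSX2 in all 3, and PDX1 and NKX3-2 in 2. GSX2 had folds of 2.90, 6.74 and 3.84. PDX1, a regulator of the pancreas and duodenum, had 4.84 and 7.48 in replicates 1 and 2 and none in replicate 3. GSX1, PDX1 and CDX2 are neighbours on chromosome 13. Among growth factors, receptors and their signalling genes it was 4 of 30 (13.3%, with the same 6.21% and 15.2% beside it). FLT1, a receptor of vascular endothelial growth factor, had 4.28, 2.17 and 4.40, while EREG, FGFRL1 and FGFR3 had a peak in 2 replicates. Among matrix and adhesion genes it was 4 of 34 (11.8%), COL4A2 and SPON2 in all 3 and COL4A1 and PCDH7 in 2. COL4A1 and COL4A2 lie head to head and share a peak in replicates 1 and 2.

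Of 15 coagulation and plasma protein genes, 3 had one in at least 2 replicates (20%, against 6.21% on these chromosomes and 15.2% over all). All 3, F7 (3.73, 3.50 and 3.26), F10 and PROZ (2.96 and 3.76 in replicates 2 and 3), are neighbours at the far end of chromosome 13, while ALB, AFP and the fibrinogen genes FGA, FGB and FGG on chromosome 4 had none. Of 28 genes listed under ion channels, receptors and synapse it was 4 (14.3%). CPLX1, KCNG2 (4.44, 3.05 and 4.10) and ADRA2C (2.95, 4.01 and 3.41) had it in all 3. ATP4B, which encodes a proton pump subunit and fits the list only loosely, had it in 2. These lists are short, and nothing particular to them is read from the counts.

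In short lists of related genes, where the 6.21% of these chromosomes comes to less than 1 gene each, none had a gene-end peak in any replicate. The counts were 0 of 7 alcohol dehydrogenase genes, 0 of 10 UGT2 glucuronosyltransferase genes, 0 of 13 chemokine genes, 0 of 10 SERPINB protease inhibitor genes and 0 of 5 toll-like receptor genes. Counts of 0 in lists this short allow shares of up to 42.9%, 30%, 23.1%, 30% and 60%. Each limit here and below is 3 divided by the number of genes, a rough bound for short lists. It takes the genes as independent, which neighbouring genes may not be. Of 17 genes of housekeeping complexes 0 had a gene-end peak in at least 2 replicates, which allows up to 17.6%, a range that includes both the 6.21% of these chromosomes and the 15.2% over all. RPS3A, a ribosomal protein gene, had one in replicate 1 alone (3.89) and GTF3A, a transcription factor of RNA polymerase III, in replicate 3 alone (3.00). Of 19 genes listed as markers of other tissues, mainly muscle, blood, endothelium, liver and neurons, it was also 0, which allows up to 15.8%. The list is mixed and also holds the desmoglein genes DSG1 and DSG3. Of the 114 microRNA hairpins of the 3 chromosomes 0 had a peak in all 3 replicates. No share over all hairpins stands beside this count, and nothing about hairpins is read from it. MIR4274, inside SORCS2, had one in replicates 2 and 3, and MIR8073, inside COL4A2, in replicate 1.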

How the data were processed

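Chromatin of HCT116 cells was immunoprecipitated with an antibody to acetylated NEIL1 in 3 replicates, with 3 inputs. The authors deposited 1 peak table per ChIP library, called without pooling with MACS 2.1.1.20160309 at a q-value cutoff of 0.05 against the input of the same number, with at most 2 tags kept per position, per the file headers. Bowtie2, Trim Galore, cutadapt, FastQC, SAMtools and bedtools are listed in the submitters' processing notes, which give no versions or roles. Coordinates are 1-based in hg38, per the file headers. The deposited signal is the tag pileup at the summit, with tags extended to 268, 294 and 249 bp in replicates 1, 2 and 3. In replicate 3 the pileups are not whole numbers and so are not plain tag counts. Only in that replicate did the ChIP library hold more tags than its input (35222701 against 33606858). Pileups and backgrounds are therefore not in the same unit across replicates. The caller's p and q were deposited as −log10 values. The deposited fold enrichment is a ratio of pileup to local background, each with 1 added, and was used to rank and describe peaks and to recover the local background. The lists hold no counts outside peaks. The input libraries' own values were not analysed here.

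Chromosomes 1 to 22 and X were used. Lists were merged at an overlap of 1 bp or more. For a region, gene or promoter, the strongest peak of a replicate gives the fold there. Gene spans came from a RefSeq table of GRCh38.p14 (58419 genes, 19821 of them protein-coding, after 679 rows on scaffolds were dropped). It holds no exons, so introns, exons and UTRs were not analysed here. Strand and sequence came from a RefSeq table of 34961 promoter windows in 27195 genes. Some genes, SORCS2, CPLX1, CPZ and DGKQ among them, had no window in it. A few items that the naming rule takes are not reported here. Libraries are the replicates. For the planned measures, chromosomes 4, 13 and 18 were compared with the others in the same library, with an exact sign-flip permutation test, two-sided. Interval functions were tested on simulated data. Python 3.11.15, pandas 2.3.3, NumPy 2.4.6, SciPy 1.17.1 and matplotlib 3.10.9 were used.

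The chromosomes, the 13 gene lists (242 of 250 entries lie on chromosomes 4, 13 and 18) and the naming rule were chosen with earlier results of these data known. Ranked by fold inside each replicate and then by the mean of the 3 ranks, the rule took the top 20 genes with a gene-end peak in all 3 replicates, the top 5 shared regions and the 3 densest 1 Mb bins of each chromosome, up to 4 members of each list with such a peak and up to 2 without, and NEIL3, BRCA2, ERCC5, LIG4, POLI, RB1, CDX2, SMAD4 and GATA6 whatever their values. Where a count is 5 or fewer, the genes behind it are named too. Alternatives were peaks with −log10 q of 5 or more, leaving out each replicate, 50% reciprocal overlap, lists of equal length, outer 5 Mb, a 5 kb gene-end window, 100 kb bins, density per gene or without the outer 10 Mb, and distances that count long non-coding RNA genes.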

Additional observations from a re-analysis of the deposited data

How the results depend on the processing

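Peaks with −log10 q of 5 or more changed the sign of 2 small differences between chromosomes 4, 13 and 18 and the others: the percentage of peaks with a partner in both other replicates became 0.100 points higher (-1.67 with all peaks), and the median width 14.7 bp larger (-8.83 with all peaks). The cause was not tested. The differences in peaks per Mb, outer 10 Mb, distance to gene ends, summits within 1 kb and median fold kept their sign under every alternative run, although counting long non-coding RNA genes cut the distance difference from 11926 to 3770 bp. With the stricter peaks 10.7% of merged regions were in all 3 replicates, 32 genes had a gene-end peak in at least 2 replicates, and the densest bins, 1 in 10, held 86.5% of the peaks. With a 5 kb window the gene count was 184, and with 100 kb bins the share was 90.2%. Lists of equal length gave 12.4% of regions in all 3. Leaving out each replicate gave 21.5% to 24.7% of regions in both remaining lists, where only 2 lists had to agree, and 47 to 67 genes, the lowest without replicate 2. Of the 20 named genes, 12 had a gene-end peak in all 3 replicates with the stricter peaks, and 13 of all 43 did. A peak within 5 kb of an end was found for 3 of the 9 genes named whatever their values (POLI, CDX2 and GATA6). The sign-flip test pairs chromosomes within a library. No paired analysis was possible because, for ChIP against input, the inputs with the same replicate numbers entered only as the peak caller's controls and gave no values of their own. With 3 libraries the exact test cannot fall below 0.25, and depth hides peaks under the caller's cutoff.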

Other observations

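The highest pileup on chromosomes 4, 13 and 18 stood at chr4:189846005-189847261, in the long non-coding RNA gene FRG1-DT and 93611 bp from FRG1, near the long-arm end of chromosome 4. Its pileup was 187, 261 and 161.25 in replicates 1, 2 and 3, where the median peak of these chromosomes had 19.0 ± 0.936 (SD, n = 3). The fold was only 5.53, 7.10 and 4.39, since the local background there was 33.0, 35.9 and 36.0, against a median of 4.77 ± 0.579 (SD, n = 3). A second place nearby, from 190082280 to 190084249, had pileups of 94, 152 and 111.63 with folds of 1.81, 3.56 and 2.82, over a background of 51.5, 42.0 and 39.0. In replicate 3 a peak at chr4:9271797-9272097 had a pileup of 103.05, a fold of 1.51 and a background of 68.0. These places were picked for their pileup after it was seen. In the ranking by fold none of them was among the 5 highest regions of chromosome 4.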
